A study of Mus musculus with 4 samples.

Results

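The immediate-early genes examined here are Fos, Fosb, Jun, Junb, Atf3, Egr1, Egr2, Egr3, Nr4a1 and Ier2. They were chosen by symbol, and all 10 of 10 were found among the 23946 genes of the deposited tables. RNA of calvarial bone from C57BL/6J mice at postnatal day 21 was sequenced in 4 libraries. These were wild-type frontal bone, wild-type parietal bone, Twist1+/- frontal bone and Twist1+/- parietal bone, with 1 library for each genotype and bone. Twist1+/- mice carry 1 inactivated copy of Twist1, a basic helix-loop-helix transcription factor of the cranial sutures, in all their cells. Frontal bone is of neural crest origin, and parietal bone arises from mesoderm. Each bone was taken with its periosteum and dura mater, so the RNA came from a mixture of cells. RNA came from 12 mice of each strain, and how many of them entered a library is not given in the sources used here.

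With 1 library per group, no difference had a replicate check and no test was made. Values are FPKM, which divides the fragments of a gene by its length and by the size of the library, so levels of different genes can be compared per length. Ratios are FPKM ratios on the log2 scale and are described only. A gene is said to be past 2-fold or 3-fold when its ratio exceeds that size, either way, with at least 1 FPKM in the higher library.

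Twist1 itself stood at 59.0 FPKM in the frontal and 52.5 in the parietal bone of wild-type mice. Its level was 30.4 FPKM in the frontal bone of Twist1+/- mice and 50.7 FPKM where the label reads Twist1+/- parietal bone. The frontal pair thus differed by -0.96 on the log2 scale and the parietal pair by -0.05. The parietal pair also differed by GC content over all genes, as described below. With the median ratio of genes of like GC content subtracted, Twist1 stood at -0.62 in parietal and -0.99 in frontal bone. With that of genes of like transcript length subtracted, it stood at -0.03 and -0.97. Gapdh, to which the study scaled its PCR values, had a log2 ratio of -0.39 in the parietal pair. Relative to Gapdh, Twist1 was therefore not lower in the labelled Twist1+/- parietal library. By its uncorrected level, Twist1 did not tell the labelled Twist1+/- parietal library from its wild-type counterpart. That library is therefore called by its label throughout.

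Wild-type parietal bone stood apart from the other libraries in several marker lists. Nasal and airway epithelium markers summed to 22.6 FPKM there, against 271 in wild-type frontal, 1342 in Twist1+/- frontal and 1518 in the labelled Twist1+/- parietal bone. Neuron and glia markers other than the myelin gene Mbp summed to 33.95 FPKM, against 235, 161 and 72.7 in that order, and with Mbp to 68.7 against 343, 369 and 343. Neutrophil and monocyte markers summed to 7485 FPKM against 9654 to 17026, with 9 of 9 lowest there, where 35% of all genes were lowest. B and T cell markers summed to 114 FPKM against 158 to 205. The sum of meningeal markers followed Ptgds, which was at 52.8 FPKM against 327 to 1975. Without it the other 9 summed to 73.97 FPKM, within the 62.0 to 85.6 of the other libraries. Gene by gene, 5 of the 10 were lowest in wild-type parietal bone and 1 highest, against 35% and 35.7% of all genes. Past 3-fold lower there than in wild-type frontal bone were 4 of 10, and 0 were past 3-fold higher, against 13.3% of all genes either way. Skeletal muscle and osteoclast markers had their highest sums in wild-type parietal bone, at 3773 and 9181 FPKM. Marker by marker, 8 of 10 and 7 of 8 were highest there, against 35.7% of all genes. Of 12 osteoblast and osteocyte markers 10 were at 1 FPKM or more in every library. Col1a1 and Col1a2 are listed at 0 outside wild-type parietal bone. They are among 5 of the 93 genes at 1000 FPKM or more in some library that are at 0 in another, so their zeros were not read as levels. The value that 1 read added was 1.71 times as large in wild-type parietal bone as in wild-type frontal bone, 1.68 times in the labelled Twist1+/- parietal library and 1.30 times in Twist1+/- frontal bone. The parietal libraries were therefore the shallower ones.

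Immediate-early genes are transcribed within minutes of a stimulus such as a growth factor, mechanical load, calcium entry or stress, without the need for new protein synthesis. Latent factors already on their promoters, chiefly CREB on cyclic AMP response elements (CRE) and SRF with its partners on CArG boxes, start them. FOS and JUN proteins pair as the AP-1 transcription factor, which acts throughout the osteoblast and osteoclast lineages. Handling of a tissue before lysis is itself a stimulus of these genes, as of heat shock genes.

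Promoter sequences are shown for the 3 members that passed 2-fold in any of the comparisons, Fos, Junb and Nr4a1, and for Egr2, which carried the only CArG box found among the 7 promoters searched. RefSeq promoters of 7 of the 10 members were used, and each matched the mm9 genome at 1 place only. Each sequence is the 250 bases before the listed start, written 5′ to 3′ along the gene. Capitals mark the CRE core (TGACG, or CGTCA where it lies on the other strand), the CArG box and the TATA box (TATAAA). The sequences lie at chr12:86814590-86814839 (Fos, plus strand), chr8:87502648-87502897 (Junb, minus strand), chr15:101097027-101097276 (Nr4a1, plus strand) and chr10:67000367-67000616 (Egr2, plus strand, 1 of 5 listed starts).
Fos: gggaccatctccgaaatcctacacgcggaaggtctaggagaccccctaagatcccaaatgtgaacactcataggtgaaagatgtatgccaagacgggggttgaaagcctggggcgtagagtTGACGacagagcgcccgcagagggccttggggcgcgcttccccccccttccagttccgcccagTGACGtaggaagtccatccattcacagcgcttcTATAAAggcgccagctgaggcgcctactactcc
Junb: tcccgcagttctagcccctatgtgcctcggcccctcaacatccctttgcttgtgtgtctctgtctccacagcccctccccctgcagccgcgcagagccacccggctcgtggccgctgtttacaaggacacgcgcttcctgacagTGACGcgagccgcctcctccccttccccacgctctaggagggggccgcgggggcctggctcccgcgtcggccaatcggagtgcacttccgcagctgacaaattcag
Nr4a1: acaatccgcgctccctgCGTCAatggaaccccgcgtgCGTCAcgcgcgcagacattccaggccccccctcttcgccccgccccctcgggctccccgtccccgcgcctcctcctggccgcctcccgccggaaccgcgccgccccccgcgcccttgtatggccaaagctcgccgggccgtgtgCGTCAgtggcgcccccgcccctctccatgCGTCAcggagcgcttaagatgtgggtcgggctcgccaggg
Egr2: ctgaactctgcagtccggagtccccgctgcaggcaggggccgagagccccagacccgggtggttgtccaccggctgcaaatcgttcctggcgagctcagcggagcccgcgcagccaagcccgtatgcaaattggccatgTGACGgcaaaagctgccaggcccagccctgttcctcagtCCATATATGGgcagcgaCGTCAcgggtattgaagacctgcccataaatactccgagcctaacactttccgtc

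Over the window from 250 bases before to 50 bases after the start, both strands, the CRE core TGACG was found in 6 of the 7 member promoters, with 11 matches. Among 32544 RefSeq mouse promoters of the same length 20.9% held it. Nr4a1 had 4 matches, beginning 233, 213, 69 and 40 bases before the start by the position of their first base. Fos and Egr2 had 2 each, and Junb, Fosb and Atf3 had 1 each. No match was found in Jun. The full CRE palindrome, TGACG followed by TCA, was found in 0 of 7 member promoters and in 1.80% of all. A CArG box was found in 1 of 7, that of Egr2, and in 1.64% of all. Bases further from the start were not searched, so a CArG box there would be missed. The EGR site GCGNGGGCG was found in Fosb and Nr4a1 and in 5.60% of all, and it overlapped no CRE core in either. TATAAA was found in Fos and, just after the listed start and so beyond the printed bases, in Junb, against 13.6% of all. The Junb gene model used here begins further on, at chr8:87502617 on the minus strand, so this TATAAA lies before the gene-model start. The AP-1 site TGANTCA was found in 0 of 7 and in 7.79% of all. These matches describe letters in the window and are no evidence that a factor was bound in these bones.

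All 10 immediate-early genes were detected in all 4 libraries, from 1.10 FPKM for Egr2 in wild-type frontal bone to 43.4 FPKM for Junb in the labelled Twist1+/- parietal library. Their levels differed less between libraries than between genes. The highest of a gene's 4 values was between 1.55 times (Egr1) and 3.0 times (Nr4a1) its lowest. Wild-type frontal bone had the lowest value for 7 of the 10 members, against 20.9% of 14542 genes, and the labelled Twist1+/- parietal library had the highest for 4, against 21.9%. The 10 values summed to 98.4 FPKM for wild-type frontal, 122 for wild-type parietal, 123 for Twist1+/- frontal and 166 for the labelled Twist1+/- parietal bone. In bulk RNA, a lower value from fewer cells that express a gene and one from less RNA per cell cannot be told apart.

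**Figure D1:**
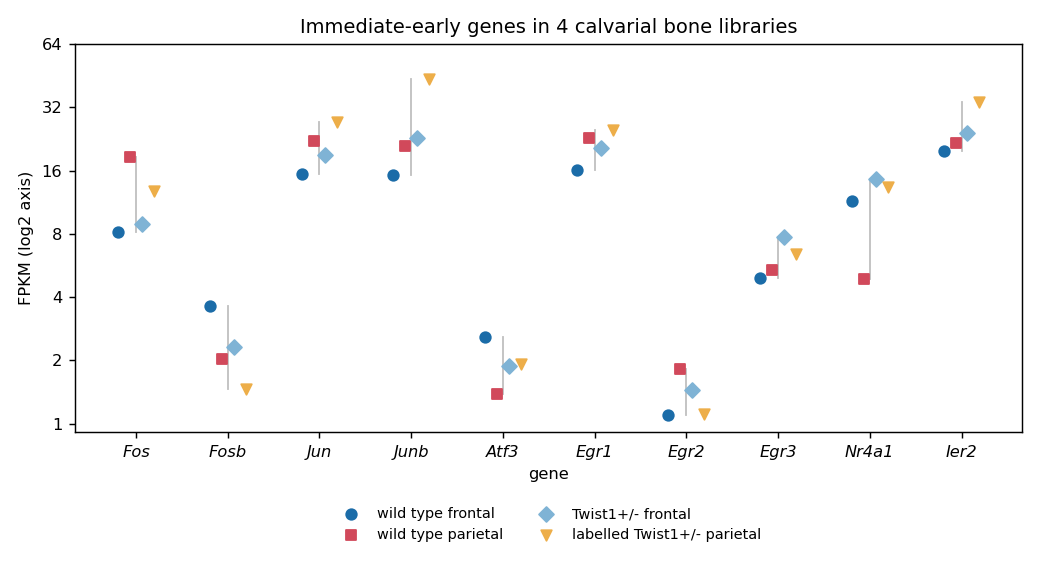
FPKM (log2 axis) of the 10 immediate-early genes in 4 libraries, 1 point per library and gene, with a grey line from the lowest to the highest value of a gene. Nr4a1 is lowest in wild-type parietal bone (4.86 FPKM) and Junb highest in the labelled Twist1+/- parietal library (43.4 FPKM). Fos is higher in parietal than in frontal bone of each genotype.

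The FOS members form AP-1 with JUN proteins and cannot form it alone. Fos, on mm9 chr12:86814840-86818223, stood at 8.13 FPKM in the frontal and 18.6 in the parietal bone of wild type. It was at 8.95 FPKM in Twist1+/- frontal bone and at 12.7 in its labelled parietal counterpart. Fos was thus higher in parietal than in frontal bone in both genotypes, as were 31.2% of all genes. Fosb, on chr7:19888070-19895394, was the reverse, at 3.64 and 2.32 FPKM in wild-type and Twist1+/- frontal bone and 2.04 and 1.47 in wild-type and labelled Twist1+/- parietal bone. It was lower in parietal bone in both genotypes, and within each bone the wild-type value was the higher. Of all genes 65.1% had the same direction in both bone comparisons.

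The ratio of Fos to Fosb within a library needs no scaling between libraries. It was 2.23 in wild-type frontal and 3.87 in Twist1+/- frontal bone, against 9.09 in wild-type parietal and 8.65 in the labelled Twist1+/- parietal bone. These ratios rest on the low values of Fosb, and the share of gene pairs with a like split was not counted. A comparison of 2 libraries with 2 allows no test. Fosl2, a FOS family gene active in osteoblasts and outside the 10 members, was higher than Fos everywhere, at 25.6, 34.1, 29.3 and 37.4 FPKM in the order wild-type frontal, wild-type parietal, Twist1+/- frontal and labelled Twist1+/- parietal bone. It made up 62.3% to 72.4% of the summed level of the 4 FOS family genes. Fosl1 was below 1 FPKM in every library, with a highest value of 0.253.

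JUN proteins pair with FOS proteins or with each other. Jun, a gene of 1 exon on chr4:94715725-94718913, stood at 15.5 FPKM (wild-type frontal), 22.2 (wild-type parietal), 19.1 (Twist1+/- frontal) and 27.1 (labelled Twist1+/- parietal). A non-coding gene, BC042782, overlaps it on the other strand. The strand setting of the counting is not given in the sources used here, so reads of that overlap cannot be assigned. Junb, also of 1 exon, on chr8:87500811-87502617, had values of 15.3, 21.0, 22.9 and 43.4 FPKM in the same order. The last of these was the highest value of any member.

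Junb and Jun were nearly level in the wild-type libraries, with a Junb to Jun ratio of 0.988 in frontal and 0.944 in parietal bone. It was 1.20 in Twist1+/- frontal bone and 1.60 in the labelled Twist1+/- parietal library. Jund, which is expressed in most resting cells, had the highest level of the family in each library, from 34.4 FPKM in wild-type parietal to 86.1 in the labelled Twist1+/- parietal bone. Set against the FOS members, Jun and Junb together were 2.62 times Fos and Fosb in the frontal and 2.10 times in the parietal bone of wild type. They were 3.73 times Fos and Fosb in Twist1+/- frontal bone and 4.96 times in the labelled Twist1+/- parietal library. Ratios within a library do not remove the GC difference between the parietal libraries. Junb and Jun differ by 7.11 points of GC content. Between the parietal libraries the log2 ratio was 1.05 for Junb, 0.29 for Jun and 1.32 for Jund. With the median of genes of like GC content subtracted, these became 0.34, -0.02 and 0.62.

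Atf3, on chr1:192994175-193007219, encodes a stress-induced factor that pairs with JUN proteins. It was one of the lowest members, at 2.60 FPKM (wild-type frontal), 1.38 (wild-type parietal), 1.88 (Twist1+/- frontal) and 1.91 (labelled Twist1+/- parietal). The Twist1+/- frontal and labelled Twist1+/- parietal values were close to each other and lay between the wild-type values.

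**Figure D2:**
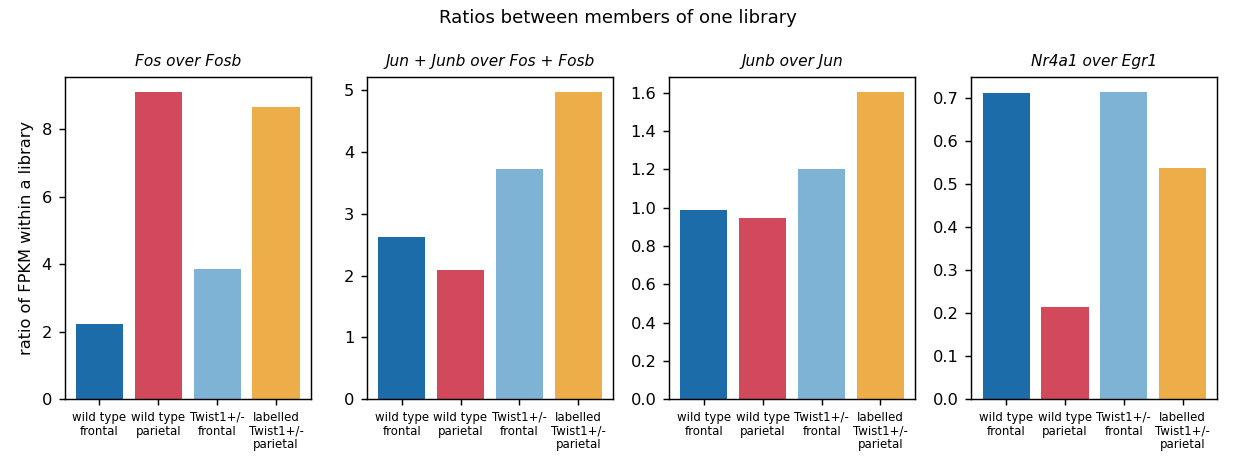
Ratios of FPKM between members within each of the 4 libraries, 1 bar per library, each axis starting at 0. Fos over Fosb is 9.09 and 8.65 in the parietal and 2.23 and 3.87 in the frontal libraries, and Nr4a1 over Egr1 is lowest in wild-type parietal bone (0.213).

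EGR proteins are zinc finger factors that bind GC-rich sites and are held in check by NAB1 and NAB2. Egr1, on chromosome 18, was the highest EGR gene in every library, at 16.1, 22.8, 20.4 and 24.96 FPKM in wild-type frontal, wild-type parietal, Twist1+/- frontal and labelled Twist1+/- parietal bone. It varied least of the 10 members. Gm17507 overlaps Egr1 on the other strand. Egr3, on chr14:70477252-70479964, stood at 4.92, 5.41, 7.74 and 6.45 FPKM in that order, with the Twist1+/- frontal and labelled Twist1+/- parietal values above the wild-type ones.

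Egr2, on chr10:66998223-67004936 and known for its part in myelination, was the lowest or next to lowest member in every library. Its values were 1.10, 1.82, 1.45 and 1.12 FPKM in the same order, so wild-type parietal bone was highest and wild-type frontal lowest. Of the genes of the EGR system outside the 10, Egr4 stood at 1.12, 0.0583, 1.67 and 1.17 FPKM, Nab1 between 9.79 and 12.2, and Nab2 between 9.93 and 22.4.

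Nr4a1, on chr15:101097277-101105223, encodes an orphan nuclear receptor induced by cyclic AMP, parathyroid hormone and T cell signals. It stood at 4.86 FPKM in wild-type parietal bone, against 11.4 in wild-type frontal, 14.6 in Twist1+/- frontal and 13.4 in the labelled Twist1+/- parietal bone. Wild-type parietal bone was the low library and the other values lay close together. Relative to Egr1 in the same library, Nr4a1 was at 0.712, 0.213, 0.713 and 0.537 in that order.

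The related receptors Nr4a2 and Nr4a3 were also low in wild-type parietal bone. Nr4a2 stood at 5.25, 1.72, 4.32 and 4.80 FPKM in wild-type frontal, wild-type parietal, Twist1+/- frontal and labelled Twist1+/- parietal bone. Nr4a3 stood at 1.88, 0.0699, 1.52 and 0.107 FPKM, so it was low in both parietal libraries. The NR4A genes summed to 6.65 FPKM in wild-type parietal bone against 18.6, 20.4 and 18.3 in wild-type frontal, Twist1+/- frontal and labelled Twist1+/- parietal bone. NR4A genes are expressed in neurons. The neuronal marker Snap25 stood at 50.1, 1.53, 50.8 and 18.6 FPKM in wild-type frontal, wild-type parietal, Twist1+/- frontal and labelled Twist1+/- parietal bone. In wild-type parietal bone 7 of the 10 neuron and glia markers were lowest, against 35% of all genes. Their part in the NR4A levels was not tested.

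Ier2, of 1 exon on chr8:87185230-87186751, encodes a small nuclear protein. It was among the highest members, at 19.7, 21.6, 24.1 and 33.8 FPKM in wild-type frontal, wild-type parietal, Twist1+/- frontal and labelled Twist1+/- parietal bone. The last library was again highest.

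**Figure D3:**
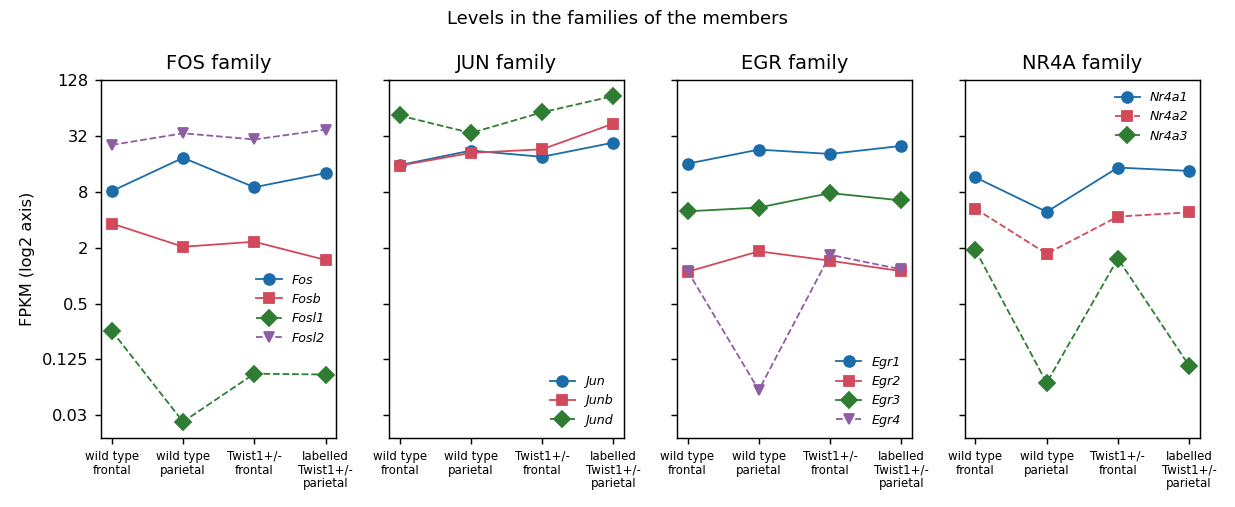
FPKM (log2 axis) of the FOS, JUN, EGR and NR4A genes in 4 libraries. Each line joins the values of 1 gene, solid for the 10 members and dashed for their relatives. In wild-type parietal bone Nr4a1, Nr4a2, Nr4a3 and Egr4 are lower than in wild-type frontal bone, whereas Fos, Jun, Junb and Egr1 are higher.

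Ordered by level, Ier2, Egr1, Jun and Junb were the 4 highest members in every library, and Egr2, Atf3 and Fosb the 3 lowest. The order within the upper group differed, with Ier2 first in both frontal libraries, Egr1 in wild-type parietal and Junb in the labelled Twist1+/- parietal bone. Nr4a1 came next, except in wild-type parietal bone, where Fos and Egr3 stood above it. With 1 library per group it cannot be said which neighbours in these orders differ beyond replicate spread.

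The comparison of genotypes in parietal bone asked how the genes stood when the labelled Twist1+/- library was set against wild type. Of the 10 members 7 were higher and 3 lower, with a median log2 ratio of 0.27. Over all genes at 1 FPKM or more in the higher library 46.9% were higher, and their median was -0.06. Nr4a1 was 2.76-fold higher (log2 1.47) and Junb 2.07-fold higher (1.05). Ier2 followed with a log2 ratio of 0.64, Atf3 with 0.47, Jun with 0.29, Egr3 with 0.26 and Egr1 with 0.13. Egr2 was lower by 1.64-fold (log2 -0.71), Fos had a log2 ratio of -0.55 and Fosb of -0.47.

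No member passed 3-fold, against 8.19% of the 13914 genes. The study paired a fold change above 3 with a p-value limit, which was not applied here, so its gene counts are not comparable. Past 2-fold were 2 of the 10, Nr4a1 and Junb, against 20.2% of all genes, so their share was at the background. The library labelled Twist1+/- parietal bone also differed from wild-type parietal bone by GC content over all genes. The median log2 ratio went from -0.59 in the group of genes lowest in GC to 0.70 in the highest of 20 groups. All 10 members have transcripts of above-median GC content, from 51.4% (Egr2) to 62.6% (Junb). After the median of genes of like GC content was subtracted, 4 of 10 members were higher and their median was -0.043. Nr4a1 then stood at 1.01, Junb at 0.34, Ier2 at -0.06, Jun at -0.02 and Egr3 at -0.45, while Fos, Fosb and Egr2 stood at -0.61, -0.78 and -0.71. Jun and Ier2 thus lay close to the median of genes of like GC content.

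**Figure D4:**
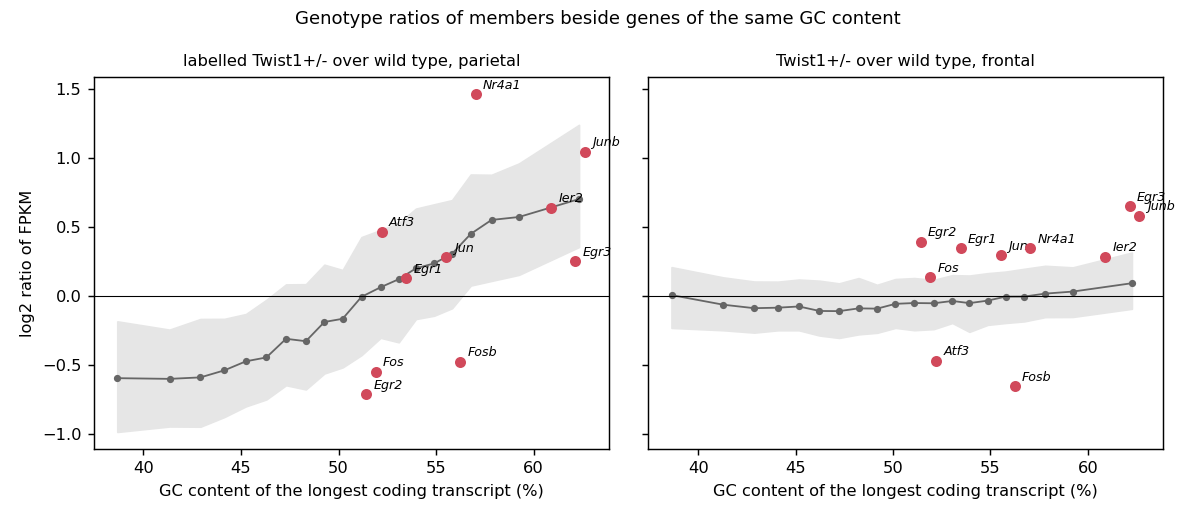
Log2 ratio of FPKM between genotypes against GC content of the longest coding transcript (%), for parietal bone on the left and frontal bone on the right. Red points are the 10 members, the line joins the medians of genes in 20 GC classes and grey spans the quartiles of each class. In parietal bone the line runs from -0.59 to 0.70 and in frontal bone from 0.01 to 0.09.

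In frontal bone, where Twist1 was lower in the Twist1+/- library, 8 of the 10 members were higher than in wild type and 2 lower. Their median log2 ratio was 0.32, against -0.04 for all genes, of which 44.6% were higher. Egr3 had the largest ratio, 0.65, followed by Junb with 0.58, Egr2 with 0.40, Nr4a1 and Egr1 with 0.35 each, Jun with 0.30, Ier2 with 0.29 and Fos with 0.14. Fosb stood at -0.65 and Atf3 at -0.47. No member passed 2-fold or 3-fold, where 7.18% and 3.89% of the 14341 genes did. The GC group medians of this pair ran from 0.01 to 0.09, and after their subtraction 8 of 10 members were still higher, with a median of 0.33. The middle 80% of genes lay between -0.47 and 0.46, and Egr3, Junb and Fosb lay outside it. The level of Gapdh, a glycolytic enzyme gene, differed by 0.10 in this pair. Cell type markers differed far more. Skeletal muscle markers summed to 114 FPKM in wild-type and 1424 in Twist1+/- frontal bone, with 10 of 10 past 3-fold higher. Nasal and airway epithelium markers went from 271 to 1342 FPKM, with 6 of 9 past 3-fold higher, and meningeal Ptgds from 1975 to 327. Their part in the values of the members was not tested.

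Set side by side, the genotype ratios had the same direction in both bones for 7 of the 10 members, and for 54.4% of all genes. Junb (1.05 in parietal and 0.58 in frontal bone), Nr4a1 (1.47 and 0.35), Ier2 (0.64 and 0.29), Jun (0.29 and 0.30), Egr1 (0.13 and 0.35) and Egr3 (0.26 and 0.65) were higher in the Twist1+/- frontal and labelled Twist1+/- parietal libraries. Fosb was lower in both (-0.47 and -0.65). Fos, Egr2 and Atf3 differed in direction, and that difference could not be tested. The count of shared directions depended on GC content. With the GC trend subtracted, Jun, Egr3 and Ier2 stood at -0.02, -0.45 and -0.06 in parietal bone. In frontal bone they stood at 0.30, 0.56 and 0.19, so they no longer shared a direction. The share of all genes after that subtraction was not counted.

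The comparison of wild-type bones asked how parietal bone differed from frontal bone. Here Fos was 2.29-fold higher in parietal bone (log2 1.19) and Nr4a1 2.35-fold lower (-1.23). Egr2 had a log2 ratio of 0.73, Jun of 0.52, Egr1 of 0.50, Junb of 0.46, and Egr3 and Ier2 of 0.13 each, while Atf3 stood at -0.91 and Fosb at -0.83. Altogether, 7 members were higher and 3 lower, with a median of 0.30, and over all genes 49.5% were higher with a median of -0.01. No member passed 3-fold, which 13.3% of the 14214 genes did. Past 2-fold were 2 of 10, against 26.9% of all genes.

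This comparison and that of the parietal bones share the wild-type parietal library, so a low Nr4a1 value there enters both. Gapdh was at 215 FPKM in wild-type parietal against 158 in wild-type frontal bone, a log2 difference of 0.44. With the libraries scaled to the same Gapdh value, Nr4a1 passed 3-fold in both comparisons, and Egr3 and Ier2 were lower in wild-type parietal than in wild-type frontal bone. After subtraction of the GC trend, whose group medians ran from 0.08 to -0.26, the median of the members was 0.51 and 7 were higher. After subtraction of the trend with transcript length it was 0.038 and 5 were higher.

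Between the parietal and frontal bones of the other genotype, the library labelled Twist1+/- parietal bone against Twist1+/- frontal bone, Junb had the largest ratio, 0.92. Fos and Jun stood at 0.51 each, Ier2 at 0.49, Egr1 at 0.29 and Atf3 at 0.03. Fosb stood at -0.65, Egr2 at -0.37, Egr3 at -0.26 and Nr4a1 at -0.12. Thus 6 members were higher and 4 lower, with a median of 0.16, against 47.5% higher and a median of -0.03 over all genes. No member passed 2-fold or 3-fold, which 11.9% and 4.09% of the 14305 genes did. GC group medians ran from -0.51 to 0.42, and after their subtraction 5 members were higher, with a median of 0.01.

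Across the bone comparisons of the genotypes, which share no library, 7 of 10 members had the same direction, as did 65.1% of all genes. Fos (1.19 in wild type and 0.51 in Twist1+/-), Jun (0.52 and 0.51), Junb (0.46 and 0.92), Egr1 (0.50 and 0.29) and Ier2 (0.13 and 0.49) were higher in parietal bone. Fosb (-0.83 and -0.65) and Nr4a1 (-1.23 and -0.12) were lower.

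**Figure D5:**
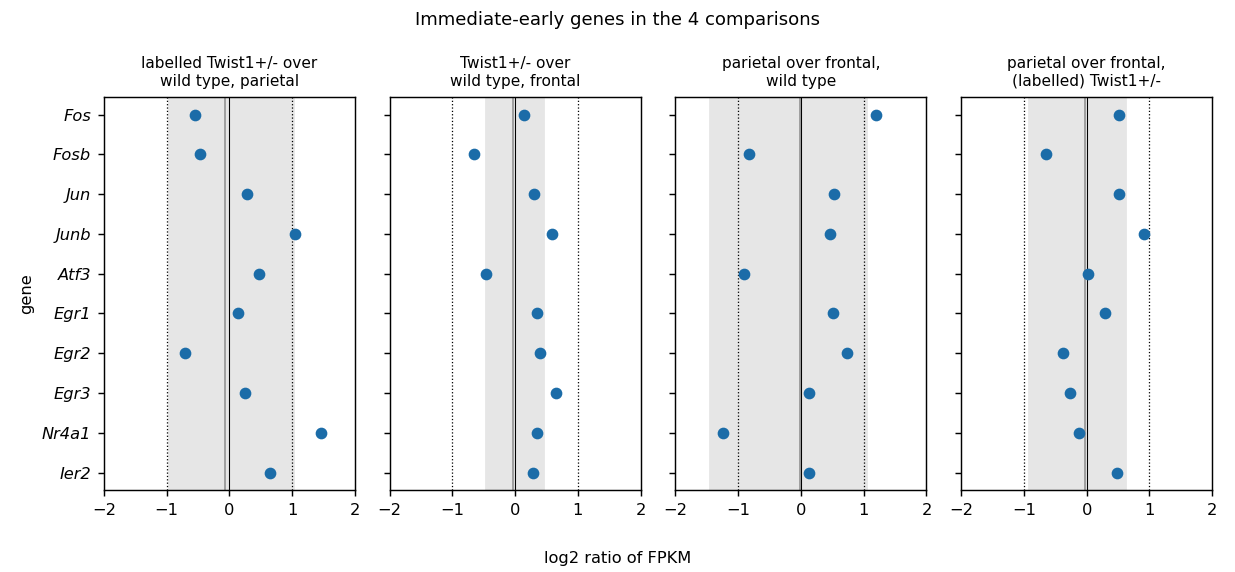
Log2 ratios of FPKM of the 10 members in the 4 comparisons, 1 point per gene. The grey band holds the middle 80% of all genes, the grey line is their median and dotted lines mark 2-fold, which only Nr4a1, Junb and Fos pass, each by less than 3-fold.

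The wider early response programme was described with lists of related genes. Of 16 other AP-1, EGR and NR4A family genes, 14 reached 1 FPKM in the higher of the parietal libraries. Past 3-fold was 1 of these (7.14%, against 8.19% of all genes), Egr4, which was higher in the labelled Twist1+/- library (log2 4.32, from 0.0583 FPKM). Their median log2 ratio was 0.78, and 0.39 after subtraction of the GC trend, which left Egr4 at 3.62. In frontal bone 0 of 15 passed 2-fold, against 7.18% of all genes, with a median of -0.08. Between the wild-type bones 3 of 15 (20%) passed 3-fold, against 13.3% of all genes, each lower in parietal bone. They were Egr4 (-4.27), Nr4a2 (-1.61) and Nr4a3 (-4.75). Between the labelled Twist1+/- parietal and the Twist1+/- frontal bones 1 of 15 did (6.67%, against 4.09% of all genes), Nr4a3 (-3.84).

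Of 30 other early response genes 29 reached 1 FPKM in the parietal comparison, of which 11 were more than 2-fold higher and 0 more than 2-fold lower in the labelled Twist1+/- library. That is 37.9%, against 20.2% of all genes in either direction. After subtraction of the GC trend 7 were past 2-fold higher and 0 lower. The share of all genes past 2-fold after that subtraction was not counted, so these 7 have no background to stand beside. Arc, which neurons use at their synapses, stood at 3.63, 0.318, 3.47 and 1.96 FPKM in wild-type frontal, wild-type parietal, Twist1+/- frontal and labelled Twist1+/- parietal bone. Klf2, a flow-responsive factor of endothelium and lymphocytes, stood at 54.8, 25.1, 63.2 and 105 FPKM, and Phlda1 at 8.96, 5.52, 12.6 and 23.9. These 3 were past 3-fold higher in the parietal comparison (10.3% of the 29, against 8.19% of all genes). After subtraction of the GC trend Arc stood at 2.05, while Klf2 at 1.37 and Phlda1 at 1.54 were inside 3-fold. In frontal bone 0 of 30 passed 2-fold, against 7.18% of all genes.

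Between the wild-type bones 4 of the 30 were past 3-fold lower in parietal bone, namely Arc (-3.51), Npas4 (-1.91), Btg2 (-1.86) and Dusp2 (-1.76), and 1 was higher, Ier3 (1.68). Npas4 is a neuronal activity factor, and Btg2 and Dusp2 restrain growth and MAP kinases in blood cells among others. The 5 of 30 past 3-fold are 16.7%, against 13.3% of all genes. Between the labelled Twist1+/- parietal and Twist1+/- frontal bones 2 of 30 (6.67%) were past 2-fold and 0 past 3-fold. Of all genes 11.9% and 4.09% were. The neuron and glia markers (33.95 FPKM without Mbp, against 72.7 to 235) and the neutrophil and monocyte markers (7485 FPKM, against 9654 to 17026) were lowest in wild-type parietal bone. Their part in these differences was not tested.

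Of 15 heat shock and handling stress genes 7 were lowest and 2 highest in wild-type parietal bone, against 35% and 35.7% of all genes. Past 3-fold lower there than in wild-type frontal bone were 3 of 15 (20%, against 13.3% of all genes), and the same 3 were past 3-fold higher in the labelled Twist1+/- parietal library than in wild-type parietal bone (8.19% of all genes). Hsph1 stood at 32.5, 4.88, 19.5 and 18.4 FPKM in wild-type frontal, wild-type parietal, Twist1+/- frontal and labelled Twist1+/- parietal bone. Hspa1a (2.44, 0.223, 1.39 and 3.01 FPKM) and Hspa1b (2.59, 0.189, 2.05 and 5.51) are near-identical copies whose reads may be split between them. The median of the 15 between the wild-type bones was -0.44, whereas that of the 10 immediate-early members was 0.30. Whether heat shock and immediate-early levels had a common source was not tested.

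Of 14 SRF, TCF and CREB genes, which act upstream of the members, 1 passed 3-fold between the parietal bones (7.14%, against 8.19% of all genes). In the other comparisons 0 of 14 passed it, against 3.89% to 13.3% of all genes. The gene was Elk4, with a log2 ratio of -1.85, and of -1.53, inside 3-fold, after subtraction of the GC trend. Its levels were 8.98, 10.9, 7.80 and 3.02 FPKM in wild-type frontal, wild-type parietal, Twist1+/- frontal and labelled Twist1+/- parietal bone.

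Downstream, 14 AP-1 and EGR target genes of bone and matrix were counted, with Col1a1 left out for its values at 0. Between the wild-type bones 3 of 14 (21.4%, against 13.3% of all genes) were past 3-fold higher in parietal bone and 0 lower. Mmp13, the collagenase of osteoblasts and hypertrophic cartilage, stood at 1409 FPKM in wild-type parietal bone, against 290 in wild-type frontal, 253 in Twist1+/- frontal and 470 in the labelled Twist1+/- parietal bone, and the wild-type bones differed by 2.28. Timp1 (1.73) and Ibsp (1.65) were also higher. Between the parietal bones 1 of 14 (7.14%, against 8.19% of all genes) was past 3-fold higher in the labelled Twist1+/- library, Tgfb1 (1.76), and 0 lower. Mmp13, just inside the threshold, had a ratio of -1.58. After subtraction of the GC trend Tgfb1 stood at 1.06, inside 3-fold, and Mmp13 at -0.99. Osteoclast markers summed highest in wild-type parietal bone (9181 FPKM against 2614 to 6717). Osteoblast and osteocyte markers without Col1a1 and Col1a2 summed to 9200 FPKM there. Their sum was 10830 in wild-type frontal, 8693 in Twist1+/- frontal and 13204 in the labelled Twist1+/- parietal bone. Most of it was Bglap and Bglap2, at 5220 and 2336 FPKM in wild-type parietal and 6811 and 3255 in wild-type frontal bone. Over these 10 markers the median log2 ratio between the wild-type bones was 0.28, higher in parietal bone. The part of osteoclast and osteoblast markers in the target genes was not tested. In frontal bone 0 of 14 passed 2-fold, against 7.18% of all genes.

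Genes with a pattern like the mean of the 10 members were sought over the 4 libraries. The 5 nearest were Csnk1e, Ski, Calcoco1, Lox and Mtdh, with root mean square distances of 0.0178, 0.0183, 0.0242, 0.0247 and 0.0261 in log2(FPKM + 1). Each was lowest in wild-type frontal and highest in the labelled Twist1+/- parietal bone, as Csnk1e shows with 21.2, 22.3, 23.5 and 27.4 FPKM. The nearest member, Egr1, lay at 0.143, and 717 of 7815 candidate genes (9.17%) lay nearer than it. The mean pattern thus lay nearer to many other genes than to any member.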

How the data were processed

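The authors enriched poly(A) RNA, made stranded libraries, sequenced single-end reads of 75 bases, aligned them to mm9 with STAR 2.4.2a and computed FPKM per gene in Cuffdiff of Cufflinks 2.2.1, per the labels and the methods of the study. The deposited tables hold 1 FPKM value per gene and library. The scaling option of Cuffdiff and the pooling of mice are not given in the sources used here. FPKM values are not counts, so the absolute depth is unknown and no interval is given. Relative depth was read from the steps between low values of the same gene.

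Ratios of FPKM were formed in 4 comparisons without a pseudocount. A gene counted as past a threshold at more than 3-fold, or more than 2-fold, with at least 1 FPKM in the higher library. A gene at 0 in 1 library counts but has no log2 ratio. Each group has 1 library, so no test was run. Named genes are the 10 members, Twist1, Gapdh, genes of the lists that passed 3-fold in a comparison or belong to the AP-1, EGR and NR4A families, and the 5 genes nearest in pattern among those at 10 FPKM or more in a library. The members and lists were chosen with earlier results of these data known. Mmp13 between the parietal bones, the markers Bglap, Bglap2, Col1a1, Col1a2, Mbp, Ptgds and Snap25, BC042782 and Gm17507 were named after their values or positions were seen. Mbp, Ptgds, Col1a1 and Col1a2 were left out of sums and counts after their values were seen.

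GC content and length came from the longest coding transcript in GENCODE M1 (mm9), found for 19341 of 23946 symbols (80.8%). All 10 members had one, and no window of 75 bases of a member occurred in a transcript of another gene. Promoters came from the RefSeq table and were placed on mm9 by exact match. Ier2 and Egr3 had no entry, and the Egr1 promoter is not reported here. Alternatives were pseudocounts of 1 and 0.1 FPKM, a floor of 10 FPKM or none, a 2-fold threshold, scaling to the median ratio, Gapdh or the upper quartile, and subtraction of the GC or length trend in 20 groups. Scripts ran in Python 3.11.15 with NumPy 2.4.6, pandas 2.3.3 and matplotlib 3.10.9, and were tested on simulated data.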

Additional observations from a re-analysis of the deposited data

Results flagged for a closer look

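Fos, Egr2 and Atf3 had genotype ratios of opposite direction in the 2 bones. Fos was lower in the labelled Twist1+/- parietal library than in wild type (-0.55) and higher in frontal bone (0.14), a difference of -0.68 on the log2 scale. Egr2 stood at -0.71 and 0.40, a difference of -1.11. Atf3 stood at 0.47 and -0.47, a difference of 0.93.

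Egr2, Egr3 and Atf3 had bone ratios, parietal over frontal, of opposite direction in the 2 genotypes. Egr2 stood at 0.73 in wild type and -0.37 in Twist1+/- (difference -1.11), Egr3 at 0.13 and -0.26 (difference -0.40), and Atf3 at -0.91 and 0.03 (difference 0.93). None of these differences was tested, since each rests on 4 single libraries. Egr2, Egr3 and Atf3 are among the lower members, at 1.10 to 7.74 FPKM. The 0.03 of Atf3 and the 0.13 of Egr3 changed direction under other settings.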

How the results depend on the processing

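Of the 40 member ratios, each recomputed under 7 alternatives, 270 of 280 values kept their direction and 34 ratios kept it under all 7. The 10 that changed were Jun, Egr3 and Ier2 in the parietal comparison of genotypes under GC subtraction, Egr3 and Ier2 between the wild-type bones under length subtraction and Gapdh scaling, and Atf3 between the labelled Twist1+/- parietal and Twist1+/- frontal bones under GC or length subtraction and upper-quartile scaling. The count of members past 3-fold, 0 in each comparison, became 2 in the parietal genotype comparison and 2 between the wild-type bones with the 2-fold threshold, and 1 in each with Gapdh scaling (Nr4a1, at 1.86 and -1.68). The parietal count past 2-fold became 1 under GC or length subtraction, settings added for that count after the data were seen. The parietal median became -0.043 under GC subtraction, and the wild-type median became -0.15 under Gapdh scaling and 0.038 under length subtraction. No other count moved by more than 1.5 times. The cause was not tested.

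No paired analysis was possible because each group has 1 library, so none was left out. Absolute depth is unknown, and the counting error of members near 1 FPKM, such as Egr2 and Atf3, is not given.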
